A study of Homo sapiens with 16 samples.

Results

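The mRNA of 56 genes that write, erase or read histone acetylation and methylation was followed in colon fibroblasts of the human line Ccd18-Co after repeated cytokine exposure and treatment with inhibitors of this machinery. The genes were chosen by symbol, and all 56 were present among the 40663 symbols of the count table. They comprised 11 zinc-dependent deacetylases, 5 sirtuins, 9 acetyltransferases, 12 demethylases, 7 polycomb subunits, 11 methyltransferases of other histone sites and BRD2, an acetyl-lysine reader. The measurement was bulk RNA sequencing of 16 libraries in 4 groups of 4. The unstimulated group received no cytokines. The other groups received 3 pulses of IL-1B (0.1 ng/ml) with OSM, IL-17A and TNF (10 ng/ml of each), all of 72 h and each followed by 96 h without cytokines. After 1 week of rest, these cultures were given DMSO (the vehicle group), belinostat at 250 nM or GSK-J4 at 10 µM for 5 days, and RNA was taken 2 weeks after the compound was withdrawn. The sample titles put the unstimulated cultures on DMSO as well, whereas their table columns say none. All libraries came from 1 line, and the labels do not say whether replicates were separate experiments, so the p-values measure the spread between these cultures, which may be technical. The values describe mRNA after withdrawal and not enzyme activity or histone marks.

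Acetyl groups are placed on histone lysines by acetyltransferases such as EP300 and CREBBP and removed by deacetylases. Class I deacetylases (HDAC1, HDAC2, HDAC3 and HDAC8) act mostly in the nucleus, class IIa enzymes (HDAC4, HDAC5, HDAC7 and HDAC9) shuttle between nucleus and cytoplasm and have weak catalytic activity of their own, and sirtuins depend on NAD. Methylation of H3K27, the mark of polycomb repression, is placed by EZH1 or EZH2 within polycomb repressive complex 2 and removed by KDM6A and KDM6B. Belinostat is a hydroxamate that inhibits the zinc-dependent deacetylases broadly, and GSK-J4 is a cell-permeable inhibitor of KDM6A and KDM6B that also acts on some KDM5 enzymes. The question was whether the genes of these enzymes kept an altered mRNA level after the cytokines and after the compounds were gone.

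The libraries held 14418942 to 19476420 estimated counts. The 9 fibroblast markers had mean normalized counts of 12180 to 155400. Their summed level was 506800 ± 12000 (SD, n = 4) in the unstimulated group and 524000 ± 16000 in the vehicle group. It was 485800 ± 37100 after belinostat and 561900 ± 16100 after GSK-J4. Among markers of other cell types, EPCAM averaged 1.47, CDH1 6.99, KRT20 0, PTPRC 1.92, CD3E 0, PECAM1 3.23, CLDN5 4.89 and CDH5 0.0555 normalized counts. Higher levels were found for CD14 (129), CD68 (278), VWF (24.9), KRT8 (397) and KRT18 (1592). The summed level of 4 endothelial markers was between 26.8 and 39.2 in the group means. The summed level of the 5 epithelial markers, mostly KRT18 and KRT8, was 2874 ± 643 (SD, n = 4) normalized counts after belinostat and 1709 ± 172 in the vehicle group. It was 1814 ± 157 in the unstimulated group and 1590 ± 96.5 after GSK-J4. The part of these genes in the results for enzymes was not tested. The summed level of 16 proliferation markers was 2098 ± 129 in the unstimulated group, 2391 ± 170 in the vehicle group, 2286 ± 27.7 after belinostat and 2661 ± 96.9 after GSK-J4. Belinostat replicate 17 stood apart from its group: its mean squared deviation from replicates 18, 19 and 20, over all but the lowest genes, was 26.5 to 31.6 times counting noise, against 3.69 to 4.70 times among those 3. Unstimulated replicates 1 and 3 also differed by 31.3 times. In bulk RNA, fewer cells of a kind and less RNA per cell cannot be told apart.

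The machinery was broadly transcribed in these fibroblasts. Levels between genes are given as TPM, computed here from the estimated counts per kb of each gene's canonical transcript, scaled to a common total per library and averaged over the 16 libraries. The median of the 56 genes was 29.0, against 21.7 over the 13840 symbols whose normalized count averaged 10 or more, and 41 of the 56 genes lay above that median. HDAC1 was the highest at 191 ± 8.03 (SD over libraries), followed by BRD2 at 135 ± 6.97, KDM1A at 87.2 ± 3.92 and SIRT2 at 82.4 ± 4.90. HDAC9 was the lowest at 0.969 ± 0.192, the only gene under 2. EZH2, the polycomb methyltransferase typical of dividing cells, and SUV39H1, which methylates H3K9, followed at 2.69 ± 0.461 and 3.66 ± 0.673. These levels are approximate, since 1 transcript stands for each gene. The plot of levels by role shows the genes with their 4 group means.

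**Figure D1:**
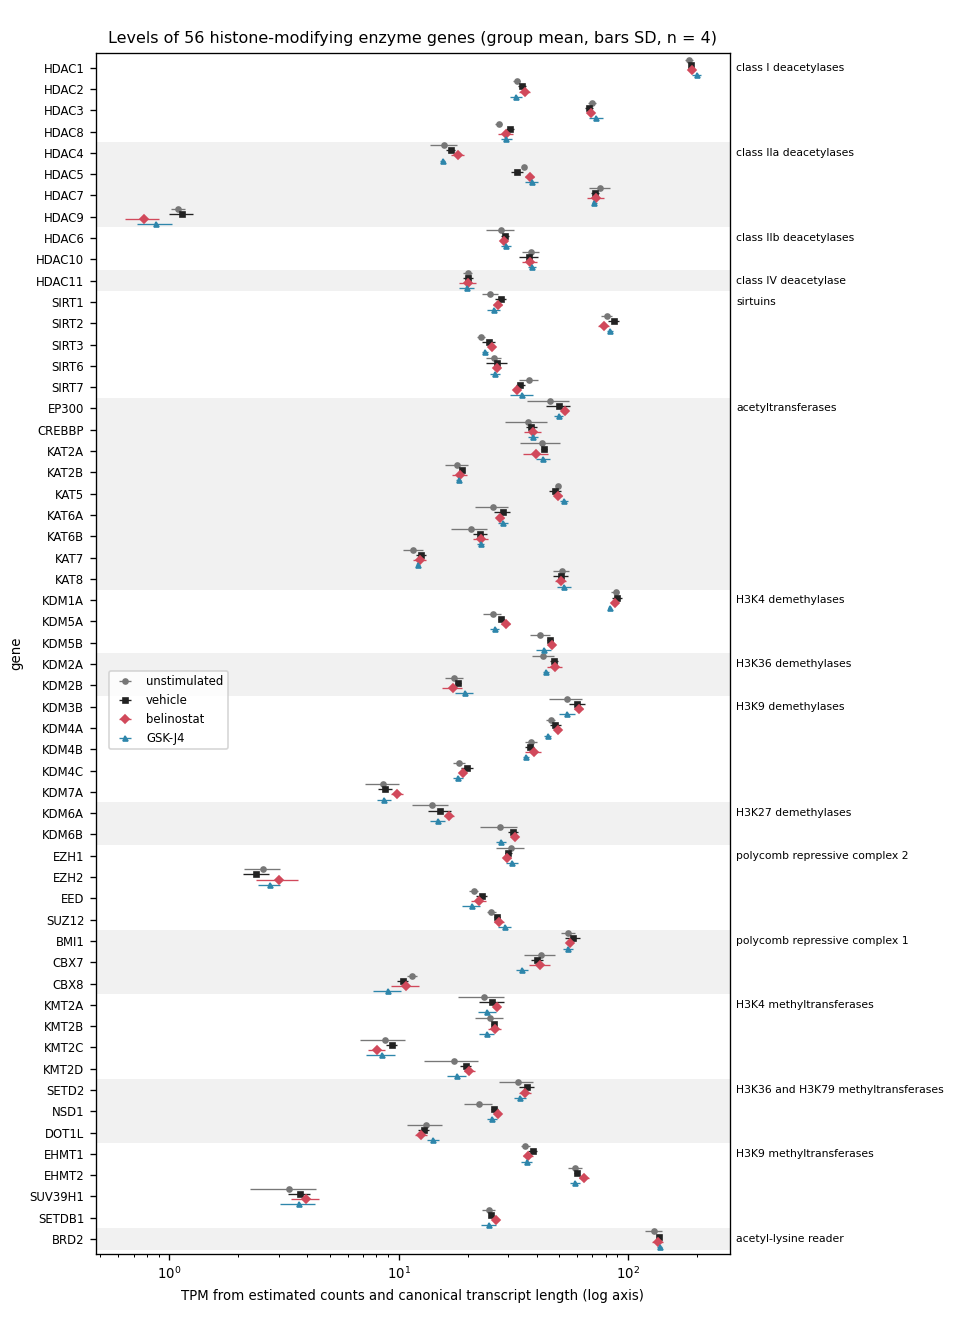
Levels of the 56 genes, grouped by role, in TPM on a log axis, as group means with SD (n = 4 libraries per group, markers and colours by group). The levels span HDAC9 at 0.969 to HDAC1 at 191 on average, and the 4 groups lie close together for nearly every gene.

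Among class I deacetylases HDAC1 exceeded HDAC2 per length by 5.67 ± 0.391 times in the unstimulated group, 5.45 ± 0.218 times in the vehicle group, 5.38 ± 0.389 times after belinostat and 6.14 ± 0.253 times after GSK-J4. The GSK-J4 libraries (5.80 to 6.40) lay above those of the vehicle group (5.30 to 5.77) and of belinostat (4.85 to 5.69). They overlapped the unstimulated libraries (5.12 to 6.04). The canonical HDAC2 transcript is long (9.74 kb), which lowers its level on this scale. In the polycomb pair, EZH1, the paralogue of resting cells, exceeded EZH2 by 12.1 ± 0.846 times, 12.7 ± 1.64 times, 10.2 ± 2.00 times and 11.5 ± 0.811 times in the same order. KDM6B exceeded KDM6A by 1.89 to 2.11 times in the group means, and EP300 exceeded CREBBP by 1.26 to 1.38 times. The ratio of EHMT2 to EHMT1, H3K9 methyltransferases that act as a pair, was 1.74 to 1.78 in the belinostat libraries, above the unstimulated (1.60 to 1.72), vehicle (1.48 to 1.61) and GSK-J4 libraries (1.57 to 1.66), a pair singled out after its values were seen. The libraries of the 4 groups overlapped in the EZH1 to EZH2, KDM6B to KDM6A and EP300 to CREBBP ratios.

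Most of these genes share CG-rich promoters. A RefSeq promoter window of 300 bases (250 before the start and 50 after it, GRCh38.p14) matched 50 of the 56 genes, and HDAC5, SIRT7, KAT6A, KAT8, CBX8 and DOT1L had none. The 50 windows held a median of 29.5 CG dinucleotides, counted on 1 strand since CG reads the same on both. The median was 14 over all 27305 windows and 26 over the 11831 windows of tested symbols. Fewer than 10 CG dinucleotides were found in 5 of the 50 (10.0%), compared with 12022 of the 27305 windows in all and 13.5% of those of tested symbols. Those 5 were HDAC4 with 3, HDAC9 with 5, NSD1 and SUV39H1 with 7 each, and HDAC8 with 9. For HDAC4 and HDAC9 the window lies 126873 and 408800 bases inside the annotated gene, at an internal start, so their count does not describe the outermost start. Windows within 1 kb of the annotated gene start numbered 44, of which 3 held fewer than 10. For NSD1 the window lies at the annotated gene start, and other starts of the gene were not examined, so its count describes this window only. The windows of HDAC1 (chr1:32291833-32292132, plus strand, 28 CG) and NSD1 (chr5:177131548-177131847, plus strand, 7 CG) are printed 5′ to 3′ with each CG in capitals. They stand for the common CG-rich and the uncommon CG-poor kind among these windows.
HDAC1: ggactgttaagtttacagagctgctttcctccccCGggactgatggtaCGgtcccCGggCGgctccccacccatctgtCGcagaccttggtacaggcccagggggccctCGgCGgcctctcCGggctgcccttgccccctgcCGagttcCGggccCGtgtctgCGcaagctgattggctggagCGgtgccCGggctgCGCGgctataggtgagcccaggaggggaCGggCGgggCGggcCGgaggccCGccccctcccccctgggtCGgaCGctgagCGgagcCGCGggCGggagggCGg
NSD1: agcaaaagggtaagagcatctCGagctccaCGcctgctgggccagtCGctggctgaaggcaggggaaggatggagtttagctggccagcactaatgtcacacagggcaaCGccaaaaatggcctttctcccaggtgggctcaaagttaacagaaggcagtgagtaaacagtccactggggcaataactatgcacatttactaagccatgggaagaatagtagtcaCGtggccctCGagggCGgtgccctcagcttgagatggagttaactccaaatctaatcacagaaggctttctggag
Across all tested symbols, calls between any of the 4 groups made up 17.8% of those with fewer than 10 CG dinucleotides in the window and 13.7% of the others. No binding or methylation was measured in these libraries, and the counts describe sequence only.

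After the cytokine pulses and after the compounds, the mRNA of these genes stayed close to the level of the comparison group. Each contrast was tested with DESeq2 (Wald test) on all 16 libraries, and calls were made where the p adjusted over all tested symbols (Benjamini-Hochberg) was under 0.05. All 56 genes were tested in every contrast. In vehicle against unstimulated cultures 0 of 56 were called by DESeq2, against 1.74% of all tested symbols, and 0 by edgeR. An unadjusted DESeq2 p under 0.05 was found for 4 of 56 (7.14%), against 8.92% of all tested symbols. In belinostat against vehicle 1 of 56 was called (HDAC9, lower), against 6.26%. In GSK-J4 against vehicle 1 of 56 was called (HDAC5, higher), against 1.92%. In belinostat against GSK-J4 1 of 56 was called (HDAC4, higher after belinostat), against 12.2%. In these 3 contrasts between cytokine-pulsed groups, 4, 6 and 10 of 56 had an unadjusted p under 0.05 (7.14%, 10.7% and 17.9%). The shares over all tested symbols were 15.9%, 10.0% and 22.6%. A likelihood ratio test for any difference among the 4 groups called 3 of 56 (HDAC9, HDAC5 and NSD1), against 14.4%. Without belinostat replicate 17 the counts were 0 in belinostat against vehicle, 2 in belinostat against GSK-J4 (CBX8 and HDAC4) and 5 over the 4 groups. The share over all symbols without that library is not given here, so these counts are not set against it. In the 4 contrasts edgeR called HDAC9 and HDAC4 where DESeq2 did and none of the other 54 genes. The contrasts share libraries, so their counts are not independent of one another.

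The sizes of the differences were small. The highest group mean of a gene exceeded its lowest by a median of 1.09 times, by more than 1.2 times for 4 genes (HDAC9, CBX8, EZH2 and CBX7) and by more than 1.5 times for 0 genes. The largest ratio was 1.47, for HDAC9. The same ratios over all symbols are not given here. The signed median log2 fold change over the 56 genes was 0.02 in vehicle against unstimulated and 0.01 in belinostat against vehicle. It was -0.02 in GSK-J4 against vehicle and 0.02 in belinostat against GSK-J4. Over all tested symbols it was between -0.0048 and 0.0034. Rises and falls cancel in a signed median, so it does not measure size. The median absolute log2 fold change of the 56 genes was 0.0703, 0.0387, 0.0703 and 0.0906 in the same order. Over all tested symbols it was 0.0889, 0.0927, 0.074 and 0.1164, so in GSK-J4 against vehicle the 56 genes were close to the rest. The 95% Wald interval of the log2 fold change lay wholly within 0.5 of 0 (1.41-fold) for 54, 53, 54 and 53 of the 56 genes in these contrasts. The shares over all tested symbols, many of them with fewer counts, were 64.5%, 71.2%, 79.2% and 66.1%. The limit of 0.5 was chosen after the values were seen. The genes whose interval reached beyond it were HDAC9, EZH2 and SUV39H1, none of them above 77.1 normalized counts in any library.

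**Figure D2:**
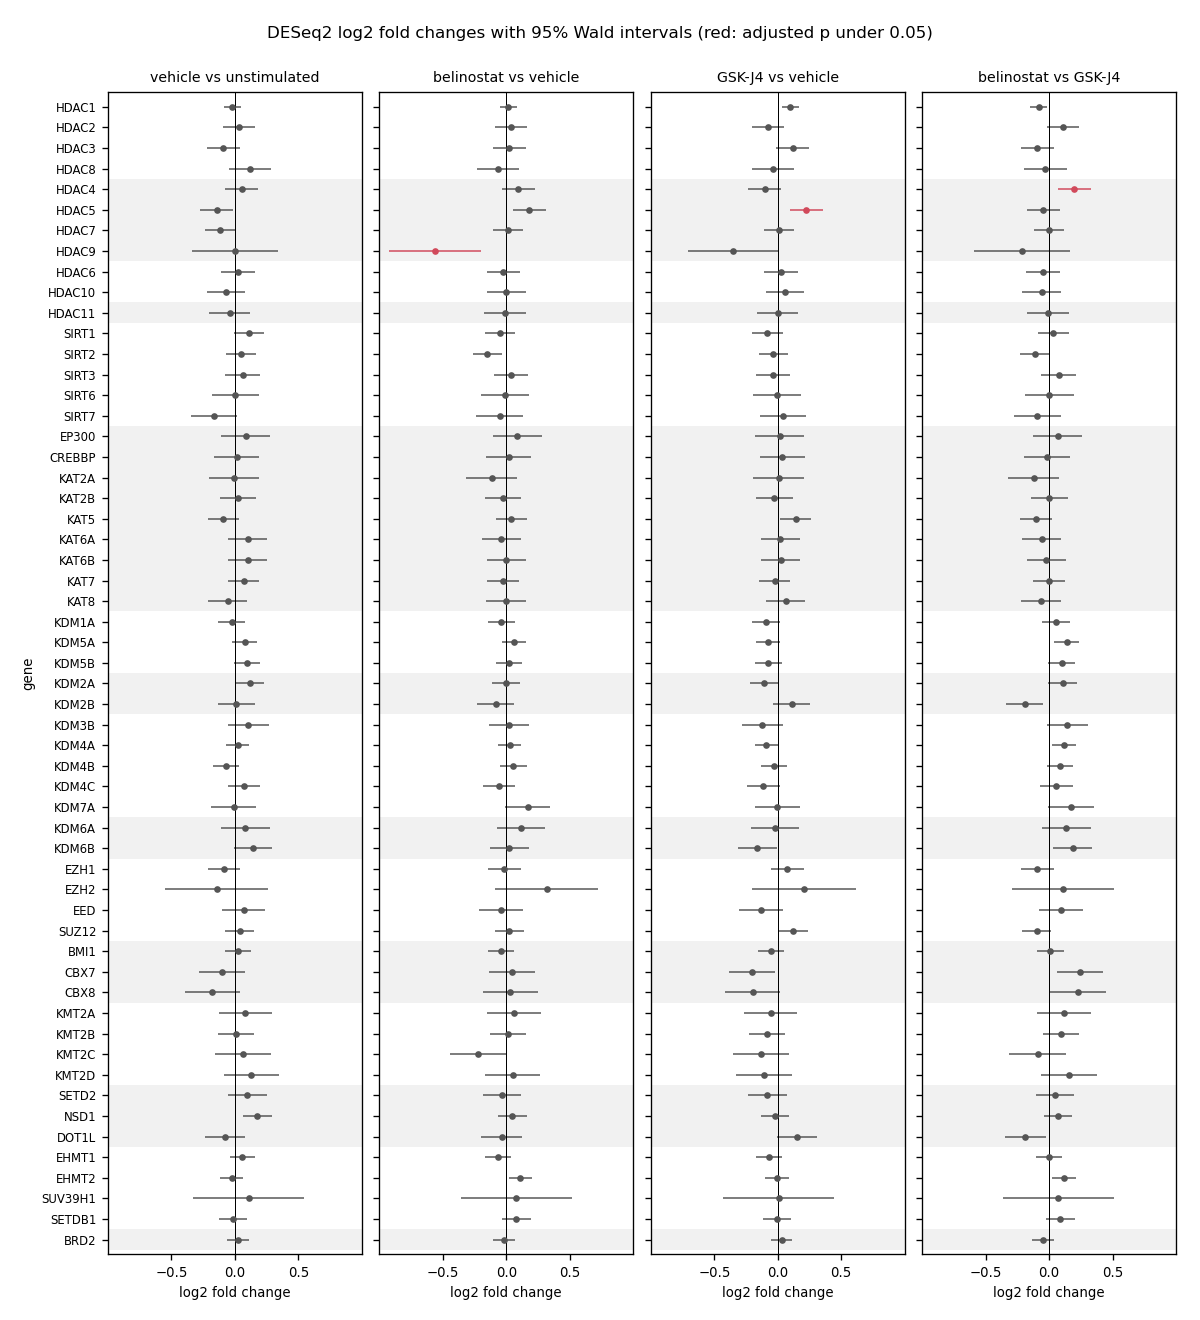
DESeq2 log2 fold changes of the 56 genes (rows, grouped by role) with 95% Wald intervals in the 4 contrasts, with genes at an adjusted p under 0.05 in red. Each of 3 panels holds 1 red gene (HDAC9, HDAC5 and HDAC4) and the vehicle against unstimulated panel holds 0, and most intervals are short and cross 0.

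Separation of the groups was also counted. All 4 libraries of 1 group lay beyond all 4 of the other for 2 of the 56 genes in vehicle against unstimulated (3.57%, against 6.93% of all tested symbols), for 3 in belinostat against vehicle (5.36%, against 11.4%), for 5 in GSK-J4 against vehicle (8.93%, against 10.0%) and for 8 in belinostat against GSK-J4 (14.3%, against 17.0%). The genes were HDAC5 and KDM5B in the first contrast, HDAC5, HDAC9 and SETDB1 in the second, and HDAC1, KAT5, KDM6B, SUZ12 and CBX7 in the third. In the fourth they were HDAC1, HDAC4, SIRT2, KAT5, KDM5A, KDM4A, KDM6B and DOT1L. In each contrast the share was below that of all tested symbols, by little in GSK-J4 against vehicle and belinostat against GSK-J4. These counts are therefore not read as a result about the 56 genes.

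The class I deacetylases, which belinostat inhibits, differed little 2 weeks after its withdrawal. HDAC1 (ENSG00000116478.12, chr1:32292083-32333635, plus strand, hg38) had 2500, 2536, 2419 and 2529 normalized counts in unstimulated replicates 1 to 4, and 2485, 2442, 2417 and 2502 in vehicle replicates 13 to 16. The belinostat libraries (replicates 17 to 20) had 2455, 2512, 2466 and 2522, and the GSK-J4 libraries (replicates 21 to 24) had 2560, 2577, 2699 and 2709. All GSK-J4 libraries lay above every other library for HDAC1, while the other groups overlapped. The log2 fold change of HDAC1 was 0.02 (95% interval -0.05 to 0.08) for belinostat against vehicle and 0.10 (0.03 to 0.17) for GSK-J4 against vehicle, with DESeq2 adjusted p of 0.914 and 0.131.

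HDAC2 (ENSG00000196591.12, chr6:113933028-114011308, minus strand), the partner of HDAC1 in the same corepressor complexes, had 2246, 2044, 1918 and 1924 normalized counts in the unstimulated libraries and 1981, 2120, 2081 and 2140 in the vehicle libraries. It had 2329, 2167, 2010 and 2036 after belinostat and 1919, 1900, 2141 and 1947 after GSK-J4. All 4 groups overlapped, and the log2 fold change of belinostat against vehicle was 0.04 (-0.09 to 0.16). HDAC3 (ENSG00000171720.10, chr5:141620876-141636849, minus strand), the catalytic subunit of the NCOR and SMRT complexes, had 935, 856, 843 and 816 normalized counts without stimulation, 860, 812, 768 and 801 with vehicle, 838, 807, 796 and 850 after belinostat, and 812, 915, 955 and 830 after GSK-J4. These groups overlapped too, with a log2 fold change of 0.02 (-0.11 to 0.15) for belinostat against vehicle. HDAC8 (ENSG00000147099.21, chrX:72329516-72573101, minus strand), which also deacetylates cohesin, had 329, 326, 280 and 290 normalized counts without stimulation, 326, 326, 323 and 352 with vehicle, 316, 305, 351 and 296 after belinostat, and 349, 317, 324 and 304 after GSK-J4. Its log2 fold change for belinostat against vehicle was -0.07 (-0.23 to 0.10). DESeq2 adjusted p for these 3 genes were 0.876, 0.936 and 0.823.

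Summed over the 4 class I genes per length, the level was 315 ± 7.07 TPM (SD, n = 4) without stimulation, 321 ± 4.16 with vehicle, 325 ± 5.10 after belinostat and 334 ± 10.9 after GSK-J4. HDAC1 made up most of that sum. The class IIb gene HDAC6 (ENSG00000094631.22, chrX:48801377-48824982, plus strand), a mostly cytoplasmic tubulin deacetylase, had 652, 718, 806 and 739 normalized counts without stimulation and 748, 713, 727 and 781 with vehicle. It had 787, 711, 711 and 712 after belinostat and 746, 736, 748 and 791 after GSK-J4. The groups overlapped, and the log2 fold change of belinostat against vehicle was -0.02 (-0.16 to 0.11, DESeq2 adjusted p = 0.940). HDAC10, the other class IIb gene and a polyamine deacetylase, had a log2 fold change of 0.00 (-0.15 to 0.15) in that contrast, and HDAC11, the class IV gene, lay between -0.04 and 0.00 in all contrasts.

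**Figure D3:**
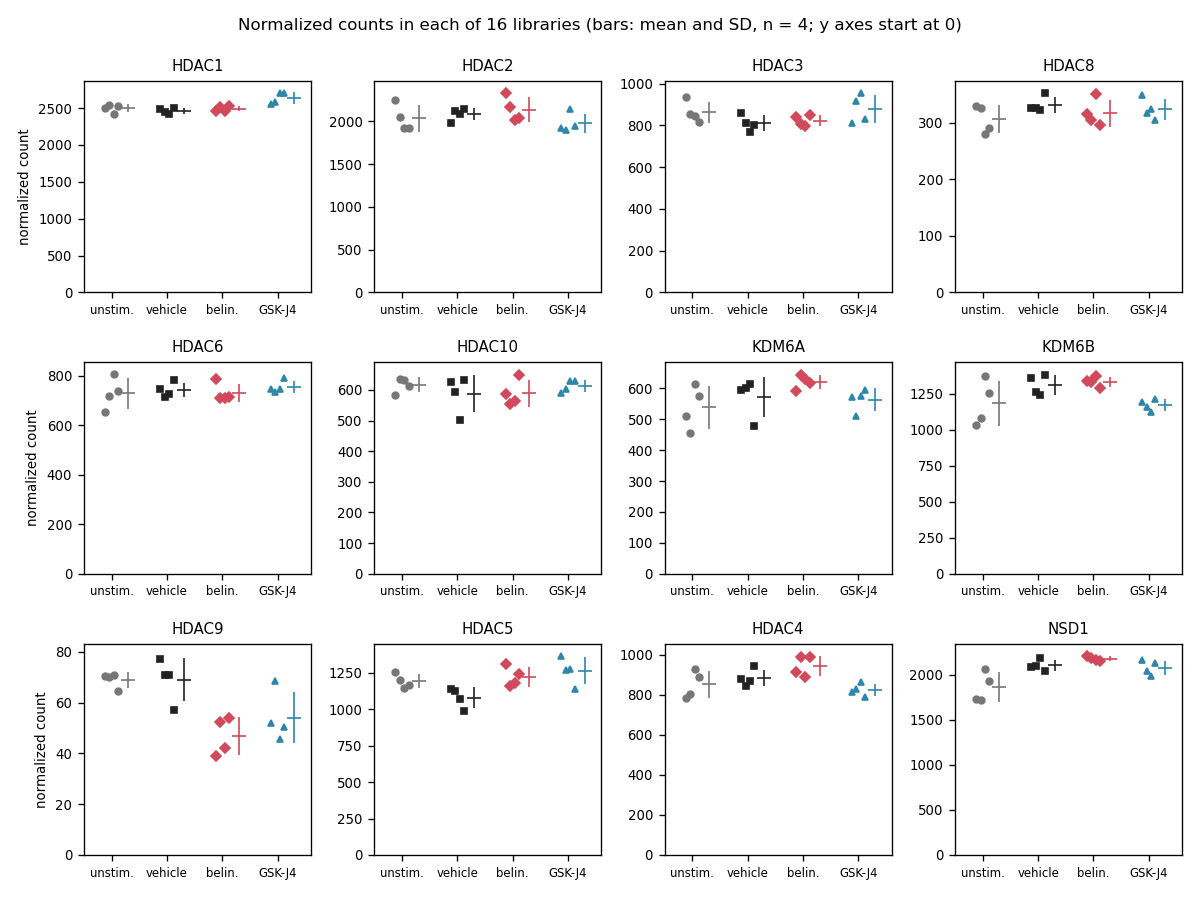
Normalized counts of 12 genes in each of the 16 libraries, with the mean and SD (n = 4) of each group beside the points and y axes that start at 0. The deacetylases HDAC2, HDAC3, HDAC8, HDAC6 and HDAC10 are level across groups, and HDAC1 is slightly higher in the GSK-J4 libraries. For HDAC9 the belinostat libraries lie below the vehicle and unstimulated ones and overlap those of GSK-J4. Unstimulated replicates 1 and 2 are the low libraries for NSD1.

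The calls among deacetylases were HDAC9, HDAC5 and HDAC4, all of class IIa. Each was the only call of the 56 genes in its contrast, against 6.26%, 1.92% and 12.2% of all tested symbols. A pattern of the class was not tested. HDAC9 (ENSG00000048052.25, chr7:18086949-19002416, plus strand), a corepressor of MEF2 factors, had 70.5, 70.1, 71.0 and 64.4 normalized counts without stimulation and 77.1, 70.9, 70.8 and 57.2 with vehicle. It had 39.1, 52.5, 42.1 and 54.0 after belinostat and 51.9, 68.6, 45.7 and 50.3 after GSK-J4. Every belinostat library lay below every vehicle and unstimulated library, and the GSK-J4 libraries overlapped both the vehicle and the belinostat groups. The mean fell from 69.0 ± 8.41 with vehicle to 46.9 ± 7.42 after belinostat, which is -0.56 ± 0.19 (SE) on the log2 scale and was called by DESeq2 (adjusted p = 0.0432, lower in 4 of 4 libraries). For GSK-J4 against vehicle the log2 fold change was -0.35 (-0.70 to 0.01, adjusted p = 0.513), and belinostat against GSK-J4 gave -0.21 (-0.59 to 0.17), so a difference between the compounds was not shown. The call for belinostat rested on few reads, with 39 to 81 rounded counts per library in the 2 groups. It was lost without vehicle replicate 13, 14 or 15 (adjusted p = 0.179, 0.116 and 0.105) or without belinostat replicate 17, 18 or 19 (adjusted p = 0.151, 0.0526 and 0.138). When the other 2 groups were left out of the fit the adjusted p was 0.109, and 2 surrogate variables gave 0.0529, so that the call held in 6 of 14 alternative fits. Replicate 17, the library apart from its group, was the lowest for HDAC9.

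HDAC5 (ENSG00000108840.16, chr17:44076746-44123702, minus strand), another MEF2 corepressor, had 1253, 1202, 1144 and 1167 normalized counts without stimulation and 1141, 1124, 1068 and 986 with vehicle. It had 1310, 1158, 1179 and 1243 after belinostat and 1363, 1272, 1277 and 1139 after GSK-J4. The vehicle libraries were the low group: all of them lay below every unstimulated and every belinostat library, and GSK-J4 replicate 24 alone overlapped them. For GSK-J4 against vehicle HDAC5 rose by 0.23 ± 0.07 (SE) on the log2 scale, a call in DESeq2 (adjusted p = 0.0376). The log2 fold change was 0.18 (0.05 to 0.31, adjusted p = 0.0882) for belinostat against vehicle and -0.14 (-0.27 to -0.01, adjusted p = 0.464) for vehicle against unstimulated, neither of which passed. With 2 surrogate variables the former was called (0.20, adjusted p = 0.0345). The 3 contrasts share the vehicle libraries. The GSK-J4 call was lost with edgeR (adjusted p = 0.108), with the trend on GC content and transcript length removed (0.198), when 2 surrogate variables were added (0.0519), and without vehicle replicate 14, 15 or 16 (0.0658, 0.156 and 0.214) or GSK-J4 replicate 21, 22 or 23 (0.233, 0.167 and 0.159) in DESeq2.

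HDAC4 (ENSG00000068024.18, chr2:239048168-239401654, minus strand), which binds the HDAC3 complex, had 784, 804, 930 and 886 normalized counts without stimulation and 877, 843, 869 and 942 with vehicle. It had 911.7, 987.9, 890.0 and 985.3 after belinostat and 812, 827, 864 and 788 after GSK-J4. The vehicle group lay between the compounds and overlapped both, while the belinostat libraries all exceeded the GSK-J4 libraries. Between the compounds HDAC4 was higher after belinostat by 0.20 ± 0.07 (SE) on the log2 scale, again a call in DESeq2 (adjusted p = 0.0302). Against vehicle the log2 fold change was 0.10 (-0.03 to 0.22) for belinostat and -0.10 (-0.23 to 0.03) for GSK-J4, neither past the threshold. The call between the compounds was lost without belinostat replicate 18 or 20 (adjusted p = 0.120 and 0.122) or without GSK-J4 replicate 21, 22 or 24 (0.0890, 0.0764 and 0.112), and with 2 surrogate variables (0.0504). HDAC7, the most abundant class IIa gene, had log2 fold changes between -0.12 and 0.01 and was called in 0 contrasts by DESeq2, at an unadjusted p under 0.05 in 1. The ratio of HDAC5 to HDAC9 per length was 32.1 ± 1.63 without stimulation, 29.3 ± 2.03 with vehicle, 49.5 ± 9.75 after belinostat and 44.3 ± 7.75 after GSK-J4, and the vehicle libraries did not overlap those of either compound. HDAC9 was called only in belinostat against vehicle (lower) and HDAC5 only in GSK-J4 against vehicle (higher). Neither compound had both genes called. The separation of the ratio restates the values of the 2 genes and adds no support. HDAC9 had at most 77.1 normalized counts in any library.

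DESeq2 called 0 of the sirtuins and acetyltransferases in any contrast, with SIRT2 and KAT5 at an unadjusted p under 0.05 in 1 contrast each. Over all tested symbols 1.74% to 12.2% were called in a contrast, and 8.92% to 22.6% had an unadjusted p under 0.05. For so few genes these counts are not a result about either class. Over the 5 sirtuins, NAD-dependent deacylases, the log2 fold changes spanned -0.17 to 0.11 in vehicle against unstimulated, -0.15 to 0.04 in belinostat against vehicle and -0.08 to 0.04 in GSK-J4 against vehicle. The lowest of these were SIRT7, a nucleolar H3K18 deacetylase (-0.17, adjusted p = 0.646), and SIRT2, a largely cytoplasmic tubulin deacetylase (-0.15, adjusted p = 0.129). Over the 9 acetyltransferases the spans were -0.09 to 0.10, -0.11 to 0.08 and -0.03 to 0.14. EP300 had 2551 ± 403 normalized counts without stimulation, 2709 ± 333 with vehicle, 2873 ± 63.6 after belinostat and 2740 ± 102 after GSK-J4, and CREBBP had 2503 ± 404, 2529 ± 128, 2563 ± 177 and 2592 ± 89.2. For both co-activators the SD was largest without stimulation. KAT5, the catalytic subunit of the TIP60 complex, had a log2 fold change of 0.14 for GSK-J4 against vehicle (adjusted p = 0.337), with no overlap between these groups. BRD2, which binds acetylated histones, lay between -0.05 and 0.03 in all contrasts.

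The H3K27 demethylases, the targets of GSK-J4, showed no called difference. KDM6A (ENSG00000147050.18, chrX:44873188-45112779, plus strand) had 511, 457, 613 and 575 normalized counts without stimulation and 596, 600, 614 and 477 with vehicle. It had 591, 642, 629 and 617 after belinostat and 573, 511, 576 and 594 after GSK-J4. The groups overlapped, and the log2 fold change for GSK-J4 against vehicle was -0.02 (-0.21 to 0.17, DESeq2 adjusted p = 0.981). KDM6B (ENSG00000132510.11, chr17:7834217-7854796, plus strand), the cytokine-responsive member of the pair, had 1031, 1080, 1369 and 1252 normalized counts without stimulation and 1356, 1263, 1238 and 1380 with vehicle. It had 1339, 1329, 1370 and 1290 after belinostat and 1195, 1157, 1123 and 1214 after GSK-J4. The GSK-J4 libraries were below all vehicle and belinostat libraries and within the range of the unstimulated ones. The log2 fold change of KDM6B was -0.16 (-0.31 to -0.01, adjusted p = 0.445) for GSK-J4 against vehicle, 0.18 (0.03 to 0.34, adjusted p = 0.106) for belinostat against GSK-J4 and 0.15 (-0.01 to 0.30, adjusted p = 0.604) for vehicle against unstimulated. Without unstimulated replicate 3 the last became 0.22 with an adjusted p of 0.0490. Summed per length, the pair stood at 41.7 ± 7.51, 46.7 ± 0.991, 48.7 ± 1.47 and 42.7 ± 2.35 TPM in unstimulated, vehicle, belinostat and GSK-J4 cultures.

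DESeq2 called 0 of the other 10 demethylases in any contrast, with KDM2A, KDM2B, KDM4A and KDM5A at an unadjusted p under 0.05 in 1 contrast each. Over all tested symbols 1.74% to 12.2% were called in a contrast, and 8.92% to 22.6% had an unadjusted p under 0.05. The counts are therefore not a result about these 10 genes. In GSK-J4 against vehicle the fold changes of the 3 H3K4 demethylases were -0.09 to -0.07 and those of the 5 H3K9 demethylases -0.12 to 0.00 on the log2 scale. In belinostat against GSK-J4 they were 0.06 to 0.14 and 0.06 to 0.17. KDM5A, which removes H3K4 methylation, had 1994, 2022, 1853 and 1848 normalized counts after belinostat and 1825, 1709, 1702 and 1779 after GSK-J4, groups that did not overlap, with a log2 fold change of 0.14 ± 0.05 (SE, adjusted p = 0.0506). KDM4A, which acts on H3K9 and H3K36, differed by 0.12 (adjusted p = 0.0902) and also did not overlap. KDM2B, a demethylase that recruits a polycomb complex to CG-rich DNA, was lower after belinostat than after GSK-J4 by -0.19 on the log2 scale (adjusted p = 0.0720), with overlap.

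DESeq2 called 0 of the 7 polycomb genes in any contrast, with SUZ12 and CBX7 at an unadjusted p under 0.05 in GSK-J4 against vehicle and CBX7 and CBX8 in belinostat against GSK-J4. Over all tested symbols, 10.0% and 22.6% had such a p in these contrasts in turn. Between 1.74% and 12.2% of all tested symbols were called in a contrast, so 0 of 7 is not a result about these genes. EZH2 ranged from 33.2 to 61.1 normalized counts over the 16 libraries, with group means of 43.3 ± 5.51, 39.3 ± 4.98, 49.3 ± 9.52 and 45.4 ± 4.77. Its log2 fold change was 0.32 (-0.09 to 0.73) for belinostat and 0.21 (-0.20 to 0.62) for GSK-J4 against vehicle, and no change of this gene was detected. EZH1 lay between -0.09 and 0.08. SUZ12, the scaffold of polycomb repressive complex 2, had 743, 724, 769 and 754 normalized counts with vehicle and 774, 779, 875 and 824 after GSK-J4, without overlap (log2 fold change 0.12, DESeq2 adjusted p = 0.444). CBX7, which reads H3K27 methylation for polycomb repressive complex 1, had 1024, 973, 969 and 1105 normalized counts with vehicle and 899, 826, 941 and 875 after GSK-J4, also without overlap. Its log2 fold change was -0.20 (-0.38 to -0.02, adjusted p = 0.402), and belinostat against GSK-J4 gave 0.25 (0.06 to 0.43, adjusted p = 0.0639). CBX8 was similar in direction, at -0.20 and 0.23, without a call.

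Of the methyltransferases, NSD1 was called by the likelihood ratio test over the 4 groups. NSD1 (ENSG00000165671.22, chr5:177131830-177300213, plus strand), which dimethylates H3K36, had 1726, 1715, 2062 and 1929 normalized counts without stimulation and 2086, 2099, 2182 and 2041 with vehicle. It had 2206, 2185, 2161 and 2146 after belinostat and 2156, 2041, 1982 and 2124 after GSK-J4. The unstimulated group was the low one, through replicates 1 and 2, and its replicate 3 reached into the vehicle range. The test gave an adjusted p of 0.00623 in DESeq2, while the log2 fold change of vehicle against unstimulated, 0.18 ± 0.06 (SE), had an adjusted p of 0.0856. Over 21 alternative fits of a difference among the 4 groups, edgeR's quasi-likelihood test included, the adjusted p of NSD1 was between 8.89e-06 and 0.0833, and the call was lost in 2 of them, those without unstimulated replicate 1 or 2. The H3K4 methyltransferases KMT2A, KMT2B, KMT2C and KMT2D spanned -0.22 to 0.13 on the log2 scale over the 3 contrasts that include the vehicle group. The H3K9 methyltransferases spanned -0.07 to 0.11, and EHMT2 (G9a) was the highest after belinostat, at 0.11 (0.02 to 0.20, adjusted p = 0.173). DOT1L, the H3K79 methyltransferase, was lower after belinostat than after GSK-J4 by -0.19 on the log2 scale (adjusted p = 0.123), without overlap.

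The deviation of single libraries from their group mean varied with transcript length, with the widest spread in the unstimulated group. Of the 56 genes, 17 have canonical transcripts over 8 kb, among them NSD1, HDAC9, HDAC4, EP300, CREBBP and the KMT2 genes. Their median SD of log2 normalized counts was 0.169 in the unstimulated group, against 0.0818 for the other 39 genes, and between 0.0659 and 0.0743 in the vehicle, belinostat and GSK-J4 groups. The median deviation of the 17 long genes from the unstimulated mean was -0.167, -0.0794, 0.135 and 0.0825 on the log2 scale in replicates 1 to 4. The correlation of deviation with log length over the 56 genes was -0.58, -0.23, 0.64 and 0.35 in these libraries, and over 11705 symbols it was -0.38, -0.22, 0.40 and 0.18. In the other groups the correlation over the 56 genes ran from -0.42 (replicate 16) to 0.44 (replicate 15) with vehicle, from -0.15 to 0.30 after belinostat and from -0.47 (replicate 23) to 0.33 (replicate 24) after GSK-J4. These points are genes of 1 library and share its depth and RNA. In vehicle against unstimulated, 15 of the 17 long genes and 20 of the other 39 had a higher mean with vehicle, with median log2 fold changes of 0.08 and 0.0041. In GSK-J4 against vehicle 13 of the 17 long genes and 22 of the other 39 had a lower mean after GSK-J4, with medians of -0.07 and -0.0075. The share of all counts taken by the 56 genes was 0.345%, 0.353%, 0.397% and 0.381% in unstimulated replicates 1 to 4 and 0.363% to 0.391% in the other libraries. With per-library trends on GC content and length removed, NSD1 in vehicle against unstimulated stood at 0.12 (adjusted p = 0.151). The part of RNA quality in this spread was not tested.

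**Figure D4:**
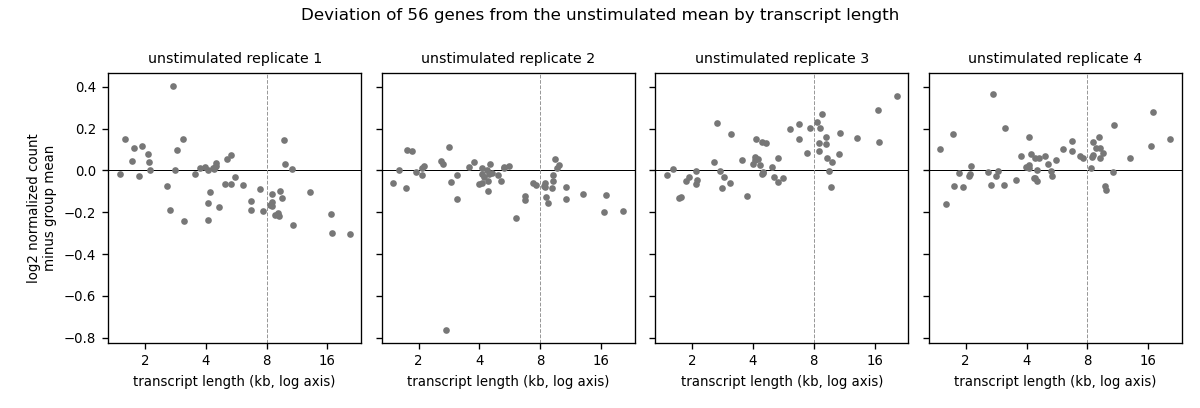
Deviation of each of the 56 genes from the unstimulated mean (log2 normalized counts) against transcript length in kb (log axis) in the 4 unstimulated libraries, with a dashed line at 8 kb. Genes with long transcripts lie mostly below 0 in replicates 1 and 2 and above 0 in replicates 3 and 4.

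Other genes of the same pathways were read from a list of 122 chromatin genes, such as subunits of deacetylase complexes and further methyltransferases, demethylases, polycomb subunits and readers. DESeq2 called 0 of 121 tested in vehicle against unstimulated (5 at an unadjusted p under 0.05, and 0 with edgeR) and 0 of 119 in GSK-J4 against vehicle (9 at an unadjusted p under 0.05, and 0 with edgeR). Over all tested symbols, 1.74% and 1.92% were called in these contrasts, and 8.92% and 10.0% had an unadjusted p under 0.05. In belinostat against vehicle 3 of 120 were called, 1 higher and 2 lower, against 6.26% of all tested symbols. ATAD2, a bromodomain protein tied to DNA replication, rose from 155 ± 10.4 to 204 ± 17.8 normalized counts (log2 fold change 0.39 ± 0.11, SE, adjusted p = 0.0147). SETD7, a monomethyltransferase, fell by 0.19 on the log2 scale (adjusted p = 0.0222), and PHC2, a subunit of polycomb repressive complex 1, fell by 0.16 (adjusted p = 0.00804). In belinostat against GSK-J4 8 of 120 were called, 1 higher and 7 lower. Over all tested symbols 12.2% were called in that contrast, 910 higher and 885 lower. The largest were TBL1X, an NCOR complex subunit (0.34, adjusted p = 0.0338), NSD2, an H3K36 methyltransferase (-0.33, adjusted p = 1.28e-05), and SMYD5 (-0.27, adjusted p = 0.00914). NSD2 had 642 ± 23.6 normalized counts after belinostat and 805 ± 38.5 after GSK-J4. The median log2 fold change of the list was between -0.0225 and -0.0017 in the 4 contrasts.

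Of the 16 proliferation markers, 2 rose in vehicle against unstimulated (TOP2A by 0.81 and RRM2 by 1.23 on the log2 scale, DESeq2 adjusted p = 0.0281 and 0.0357). In GSK-J4 against vehicle 3 of 13 tested rose (MKI67 by 1.42, TOP2A by 0.78 and TYMS by 0.66, adjusted p = 0.00843, 0.0195 and 1.85e-06), and the median log2 fold change of the 13 was 0.28, with a range of -0.22 to 1.42. In belinostat against vehicle DESeq2 called 0 of 15, with 1 at an unadjusted p under 0.05, against 15.9% of all tested symbols. In belinostat against GSK-J4 3 of 15 were called, all lower after belinostat. They were TOP2A (-0.65), RRM2 (-1.02) and TYMS (-0.47), with adjusted p of 0.0249, 0.0190 and 0.00047. Over all tested symbols DESeq2 called 1.74% in vehicle against unstimulated and 1.92% in GSK-J4 against vehicle. It called 6.26% in belinostat against vehicle and 12.2% in belinostat against GSK-J4. EZH2 and SUV39H1, which are known to rise in dividing cells, had log2 fold changes of 0.21 (-0.20 to 0.62) and 0.01 (-0.43 to 0.44) for GSK-J4 against vehicle. The difference between the enzymes and the markers was not tested.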

How the data were processed

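RNA of Ccd18-Co cultures was sequenced in 16 libraries, 4 per group. Per the labels and the study's methods, the authors checked reads with FastQC 0.11.9 and MultiQC 1.14 and quantified them with kallisto 0.48.0 against hg38. The deposited table holds estimated counts per gene symbol, not normalized, with 27.98% of values carrying decimals, and was rounded to whole numbers here. Library strandedness was not given in the sources used here, so overlapping genes on opposite strands cannot be told apart. Unstimulated columns named none were matched to titles named dmso by replicate number. The study's text gives fewer replicates and, in several places, another IL-1B concentration, and it states another general concentration for the compounds. The labels of these libraries were followed.

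DESeq2 1.42.0 (R 4.3.3, median-of-ratios scaling, group as the term, all libraries, default independent filtering, Benjamini-Hochberg adjustment, threshold 0.05) gave Wald contrasts and a likelihood ratio test. Scripts were tested on simulated data. Alternatives were edgeR 4.0.16 quasi-likelihood, TMM size factors, a filter of 10 counts in 4 libraries, only the groups compared, 2 surrogate variables (sva 3.50.0), trends on GC content and transcript length removed (GENCODE release 44, 40350 symbols matched), and each library left out. Pairs of libraries within a group were 2.97 to 31.6 times counting noise apart, so none was treated as a repeat deposit, which does not tell technical from biological replicates. Intervals are Wald intervals on the fitted log2 fold change.

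The members and gene lists were chosen with earlier results of these data known. Values per library were to be given for the compounds' target genes and for called genes with an absolute log2 fold change of at least 0.3 or called in 2 contrasts. HDAC4, HDAC5, NSD1, KDM5A, SUZ12 and CBX7 were given after their values were seen. Among other chromatin genes, up to 3 called per contrast with a mean of at least 50 normalized counts were named.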

Additional observations from a re-analysis of the deposited data

Results flagged for a closer look

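In 13 of 224 sets of 4 libraries (5.8%, where chance alone gives about 1 in 20), 1 library stood apart from the other 3 by Dixon's test. In the vehicle group, HDAC8 had 352 normalized counts in replicate 16 against 323 to 326 in the others, KDM4C had 483 in replicate 16 against 546 to 552, and KDM6A had 477 in replicate 16 against 596 to 614. KAT5 had 565 and KMT2C had 900.4 in vehicle replicate 13, against 633 to 642 and 992 to 1001, and KDM4B had 1370 in vehicle replicate 15 against 1256 to 1266. After belinostat, HDAC6 had 787 in replicate 17 against 711 to 712, SETD2 had 2003 in replicate 18 against 1820 to 1835, and KAT7 had 780 in replicate 20 against 698 to 710. After GSK-J4, KAT8 had 440 in replicate 21 against 503 to 511, and EHMT1 had 1213 in replicate 24 against 1128 to 1134. Without stimulation, HDAC9 had 64.4 in replicate 4 against 70.1 to 71.0, and EHMT2 had 1423 in replicate 2 against 1507 to 1524. Vehicle replicate 16 held 3 of the 13. Belinostat replicate 17, which over all but the lowest genes was 26.5 to 31.6 times counting noise from the rest of its group, held 1.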

How the results depend on the processing

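No paired analysis was possible because the groups share no replicate numbers. Called values kept their sign in all alternatives. The counts in this and the next paragraph are given without the share over all symbols in the same fit. They therefore show how calls moved and are not results about these genes. With 2 surrogate variables, DESeq2 called 1 of the 56 genes in vehicle against unstimulated (NSD1), 1 in belinostat against vehicle (HDAC5 in place of HDAC9), 0 in GSK-J4 against vehicle, 5 in belinostat against GSK-J4 (CBX7, DOT1L, HDAC2, KDM2B and KDM4A) and 6 over the 4 groups. With trends on GC content and length removed, the counts were 2 in belinostat against vehicle (HDAC9 and KMT2C), 0 in GSK-J4 against vehicle, 5 in belinostat against GSK-J4 (CBX7, DOT1L, EHMT2, HDAC4 and KDM6B) and 5 over the 4 groups. With only the groups compared, they were 0 in belinostat against vehicle and 2 in belinostat against GSK-J4 (HDAC4 and KDM6B). The filter on low counts gave 2 in the latter (HDAC4 and KDM5A), and edgeR gave 0 in GSK-J4 against vehicle. When each library was left out in turn, the counts ran from 0 to 2 in vehicle against unstimulated, 0 to 1 in belinostat against vehicle, 0 to 1 in GSK-J4 against vehicle, 0 to 3 in belinostat against GSK-J4 and 0 to 7 over the 4 groups. The cause of these changes was not tested. Without vehicle replicate 15 the call in belinostat against vehicle was SIRT2. The 2 were KDM6B and NSD1 without unstimulated replicate 3, the 3 were CBX7, HDAC4 and KDM5A without belinostat replicate 19, and the 7 came without unstimulated replicate 3.

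For the other chromatin genes, vehicle against unstimulated gave 1 with surrogate variables and 1 with trends removed, belinostat against vehicle gave 1 with only the groups compared, and GSK-J4 against vehicle gave 2 with only the groups compared and 1 with trends removed. With each library left out, the counts ran from 0 to 2, 0 to 3 and 0 to 0 in these contrasts, 4 to 9 in belinostat against GSK-J4 and 6 to 17 over the 4 groups. Values near 0 changed sign: HDAC2 in belinostat against vehicle was -0.01 with trends removed and ran from -0.01 to 0.07 with a library left out, HDAC3 ran from 0.00 to 0.05 and HDAC6 from -0.06 to 0.00. KDM6A in GSK-J4 against vehicle was 0.01 with surrogate variables and ran from -0.10 to 0.02. HDAC9, EZH2 and SUV39H1 had at most 77.1 normalized counts in any library.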
